A study of Drosophila melanogaster with 2 samples.

Results

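The genes described here are GluRIIA, GluRIIB, GluRIIC, GluRIID and GluRIIE, which encode the subunits of the ionotropic glutamate receptor of Drosophila melanogaster body wall muscle. They were found by symbol in the deposited transcript tables, and all 5 were present, of 17301 genes in all. Each has a single annotated transcript, so no gene value depended on dividing fragments among transcripts of that gene.

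The study sequenced poly(A)-selected RNA from pooled embryos aged 0 to 16 h, with 1 library for each of the 2 crosses and the flies kept at 25 °C. In the knockdown-labelled library the embryos carried the driver P{en2.4-GAL4}e22c, the reporter P{tGPH}4 and P{TRiP.JF02125}attP2, the transgene for RNA interference against Lim3. The control library came from embryos with the same driver and reporter and P{y+t7.7=CaryP}attP2, an insertion with no interference construct. In both crosses the X chromosomes were y1 w* or y1 w*/y1 v1. The driver parent was balanced over TM3, Ser1, while the labels list P{tGPH}4/+ offspring, and sorting of embryos is not mentioned in the labels. Each pool covers most of embryonic development, so a level is an average over embryos from before muscles form until after motor axons have reached them.

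Fast transmission from motor neurons to muscle in the fly uses glutamate. Each muscle receptor is a tetramer that contains GluRIIC, GluRIID and GluRIIE, all of which are needed for any receptor to form, together with either GluRIIA or GluRIIB. Receptors with GluRIIA desensitise more slowly and give larger responses than those with GluRIIB. The LIM-homeodomain protein Lim3 acts in the specification of motor neurons, the presynaptic partners of these muscles.

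Lim3 (FBgn0002023) was at 18.5 FPKM (fragments per kilobase of transcript per 1000000 mapped fragments) in the knockdown-labelled library and 5.81 FPKM in the control library. This goes against the label, which is therefore used only as a name. The tables do not separate fragments of the endogenous gene from any that match it in the interference transgene. Estimated depth was about 32100000 fragments in the knockdown-labelled library and 22800000 in the control library. It is uncertain, since another estimate from fewer and longer genes gave 17600000 in the knockdown-labelled library and 22700000 in the control library, and fragment numbers below are approximate for that reason. Each cross was sequenced once, so no difference could be set against replicate spread, no p-values are given, and all intervals cover counting error only.

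The subunit genes lie in 3 places. Positions are those of the Release 6 annotation, whose exon sums equal the transcript lengths in the files for all 5 genes. The files themselves place GluRIID and GluRIIE within a shared span on 3R that ends at 16478172, which is not where these genes lie in Release 6. GluRIIA (FBgn0004620) lies on the plus strand of chromosome 2L from 5555072 to 5558994, with 12 exons and a transcript of 3253 nt. GluRIIB (FBgn0020429) follows 347 nt downstream on the same strand, from 5559342 to 5563502, with 13 exons and 2949 nt. These 2 neighbours encode the alternative subunits. GluRIIC (FBgn0046113) lies apart on 2L from 914086 to 917805, with 11 exons and 3004 nt. GluRIIE (FBgn0051201) and GluRIID (FBgn0028422) are neighbours on the minus strand of 3R. GluRIIE spans 20644154 to 20648716 (13 exons, 3444 nt) and GluRIID 20648595 to 20652450 (14 exons, 3080 nt). Their exons share 122 nt, which is 3.54% of the GluRIIE exons and 3.96% of the GluRIID exons. GluRIIE also shares 126 nt with the opposite-strand gene Lrrk, at 3.40 FPKM in the knockdown-labelled library and 3.69 FPKM in the control library. GluRIIA shares 66 nt with CG14017, which was listed at 0 in the knockdown-labelled library and was at 0.0415 FPKM in the control library. GluRIID with GluRIIE, and GluRIIA with CG14017, overlap on the same strand, where strand cannot separate them. For Lrrk it is not known whether counting used strand. Fragments in these shared stretches therefore cannot be assigned with certainty.

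Among the essential subunits, GluRIID was at 9.13 FPKM (8.54 to 9.75) in the knockdown-labelled library and 7.77 FPKM (7.13 to 8.45) in the control library. It was the highest member in the first of these and the second highest in the other. With the higher depth estimate the intervals did not overlap, and intervals of single levels were not computed with the lower one. The GluRIID ratio of FPKM was 1.18 (1.06 to 1.31), on about 903 fragments in the knockdown-labelled library and 545 in the control library. The log2 difference with 1 FPKM added to both libraries was 0.21. GluRIIE was at 6.30 FPKM (5.84 to 6.79) in the knockdown-labelled library and 5.11 FPKM (4.62 to 5.64) in the control library, again with separate intervals. GluRIIE had the largest ratio of the 5, at 1.23 (1.09 to 1.40), and a log2 difference of 0.26.

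GluRIIC, the remaining essential subunit, was at 8.08 FPKM (7.52 to 8.66) in the knockdown-labelled library and 9.24 FPKM (8.53 to 9.98) in the control library. Its ratio was 0.874 (0.786 to 0.973) on about 779 fragments in the knockdown-labelled library and 632 in the control library. The log2 difference was -0.17 with the deposited values, but 0.08 when both libraries were rescaled to an equal FPKM sum. The interval of its ratio included 1 after that rescaling (0.955 to 1.18) and after centring the ratios of well-expressed genes (0.831 to 1.03). GluRIIC was the only member below 0 as deposited, and under that rescaling no member was below 0.

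As deposited, the alternative subunits had ratios nearer to 1 than the essential subunits. After rescaling to an equal FPKM sum their log2 differences, 0.32 for GluRIIA and 0.22 for GluRIIB, were larger than that of GluRIIC. GluRIIA was at 6.67 FPKM (6.18 to 7.18) in the knockdown-labelled library and 6.25 FPKM (5.69 to 6.84) in the control library, a ratio of 1.07 (0.947 to 1.20) and a log2 difference of 0.08. GluRIIB was the lowest member in both, at 1.37 FPKM (1.15 to 1.63) in the knockdown-labelled library and 1.28 FPKM (1.02 to 1.58) in the control library. Its ratio of 1.07 (0.811 to 1.43) stood on about 130 fragments in the knockdown-labelled library and 86 in the control library, the fewest of the 5. For these 2 genes the intervals of the libraries overlapped and the interval of the ratio included 1, so with the deposited values no difference was detectable for either. After rescaling to an equal FPKM sum the GluRIIA ratio was 1.30 (1.15 to 1.46), which leaves out 1, and the GluRIIB ratio 1.30 (0.985 to 1.73), which does not.

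**Figure D1:**
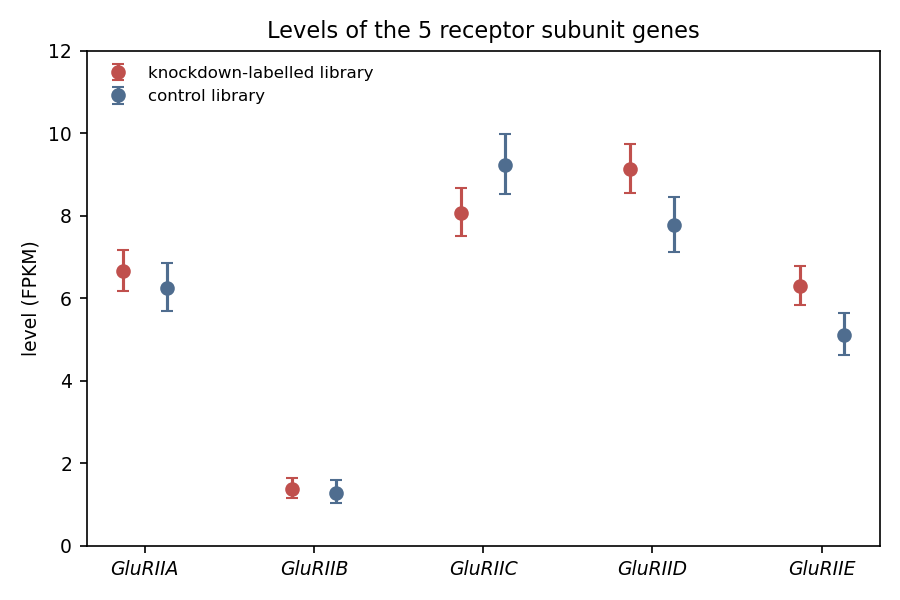
Level of each subunit gene in FPKM (vertical axis) in the knockdown-labelled library (red, left) and the control library (blue, right); points are the single values and bars are exact Poisson 95% intervals from the estimated fragments. GluRIIB lies lowest in both libraries, at 1.37 FPKM in the knockdown-labelled library and 1.28 FPKM in the control library, and GluRIIC is lower in the knockdown-labelled library as deposited, though not after rescaling to an equal FPKM sum (log2 difference 0.08).

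The order of levels was GluRIID, GluRIIC, GluRIIA, GluRIIE and GluRIIB in the knockdown-labelled library. In the control library it was GluRIIC, GluRIID, GluRIIA, GluRIIE and GluRIIB. FPKM is scaled per length, so levels of different genes can be set side by side, and their order within a library does not depend on the scaling between libraries. Differences between genes in fragment recovery other than length were not checked, and the intervals of these ratios do not cover them. GluRIID over GluRIIC was 1.13 (1.03 to 1.25) in the knockdown-labelled library and 0.841 (0.748 to 0.944) in the control library, so the 2 highest members stood in opposite order. With the lower depth estimate the interval in the knockdown-labelled library was 0.991 to 1.29, which includes 1, so their order there is not settled. GluRIIA and GluRIIE did not differ beyond counting error in the knockdown-labelled library, where the ratio of their levels was 1.06 (0.951 to 1.18). In the control library GluRIIA was higher than GluRIIE, with a ratio of 1.22 (1.07 to 1.40). The step down to GluRIIB was the largest in each library, with GluRIIE 4.59-fold above it (3.80 to 5.58) in the knockdown-labelled library and 3.98-fold (3.15 to 5.08) in the control library.

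The balance between the alternative subunits was nearly the same in both libraries. GluRIIA over GluRIIB was 4.85 (4.02 to 5.90) in the knockdown-labelled library and 4.87 (3.86 to 6.20) in the control library. Together they made up 25.5% of the receptor gene sum in the knockdown-labelled library and 25.4% in the control library. GluRIIA alone held 21.1% in each library, and GluRIIB 4.36% in the knockdown-labelled library and 4.33% in the control library.

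The sum of GluRIIA and GluRIIB was set beside the level of each essential subunit, and the interval of the ratio left out 1 in 4 of 6 cases. The sum was 8.04 FPKM in the knockdown-labelled library and 7.53 FPKM in the control library. Over GluRIIC the summed pair was 0.996 (0.902 to 1.10) in the knockdown-labelled library and 0.815 (0.726 to 0.915) in the control library. Over GluRIID it was 0.880 (0.800 to 0.969, or 0.773 to 1.002 with the lower depth estimate) in the knockdown-labelled library and 0.969 (0.859 to 1.09) in the control library. GluRIIE was below the pair in both, with the pair over GluRIIE at 1.28 (1.15 to 1.41) in the knockdown-labelled library and 1.47 (1.29 to 1.68) in the control library.

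Within the essential subunits the shares differed in opposite directions. GluRIIC held 25.6% of the receptor gene sum in the knockdown-labelled library and 31.2% in the control library. GluRIID held 28.9% in the knockdown-labelled library and 26.2% in the control library, and GluRIIE 20.0% in the knockdown-labelled library and 17.2% in the control library. The ratio between libraries was compared for all 10 pairs of members, with exact conditional intervals that were not adjusted for the number of pairs. The interval left out 1 for 3 pairs, and GluRIIC was in each of these. The GluRIIC ratio over the GluRIID ratio was 0.744 (0.639 to 0.866), and over the GluRIIE ratio 0.709 (0.601 to 0.836). The GluRIIA ratio over the GluRIIC ratio was 1.22 (1.04 to 1.43). The neighbours GluRIID and GluRIIE had ratios within counting error of each other, at 0.953 (0.807 to 1.13), and so did GluRIIA and GluRIIB, at 0.994 (0.730 to 1.35).

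**Figure D2:**
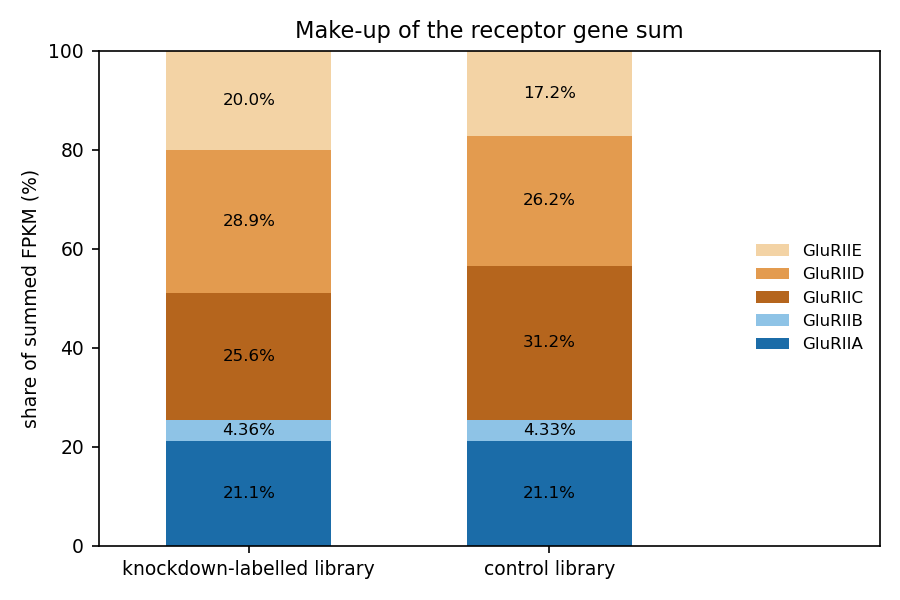
Share of each subunit gene in the summed FPKM of the 5 genes (vertical axis, percent) in the knockdown-labelled library (left bar) and the control library (right bar). The alternative subunits GluRIIA and GluRIIB (blue) hold 25.5% in the knockdown-labelled library and 25.4% in the control library, while GluRIIC (dark brown) holds 25.6% in the knockdown-labelled library and 31.2% in the control library.

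None of the 5 members reached a 2-fold difference on the scale with 1 FPKM added, where 2.39% of the 10576 tested genes did so in either direction, and none reached 1.5-fold, where 5.84% did. With as few as 5 genes, counts of 0 do not set the members apart from other genes. As deposited, 4 of 5 members lay above 0, where 43.5% of tested genes did, and the median of the members was 0.08 beside -0.04 over all tested genes. Among tested genes with a longest transcript of 2500 to 3500 nt, like the members, 51.5% lay above 0. After rescaling to an equal FPKM sum 78.8% of tested genes lay above 0, with a median of 0.21, and all members did.

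By size alone, GluRIIE differed by more than 66.2% of tested genes, GluRIID by more than 56.8%, GluRIIC by more than 48.9%, GluRIIA by more than 23.5% and GluRIIB by more than 16.0%. The last 2 are not set apart by their plain ratios, both 1.07. The 1 FPKM added shrinks the difference of GluRIIB, the lowest member, the most. Across all tested genes the 5th and 95th percentiles of the log2 difference were -0.50 and 0.43, and all 5 members lay between them. GluRIIE stood at percentile 87.7, GluRIID at 83.9, GluRIIA at 68.3, GluRIIB at 64.4 and GluRIIC at 31.4. The difference between the libraries also varied with transcript length. As deposited, 37.0% of tested genes with a longest transcript of 1000 to 2500 nt lay above 0, and 61.7% of those from 6000 nt upwards. The related lists below are set beside all tested genes and were not matched for length. Among 1501 tested genes with a longest transcript of 2500 to 3500 nt, the range that holds the members, the median was 0.01 and the 5th and 95th percentiles were -0.36 and 0.36. All 5 members lay inside these bounds as well.

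**Figure D3:**
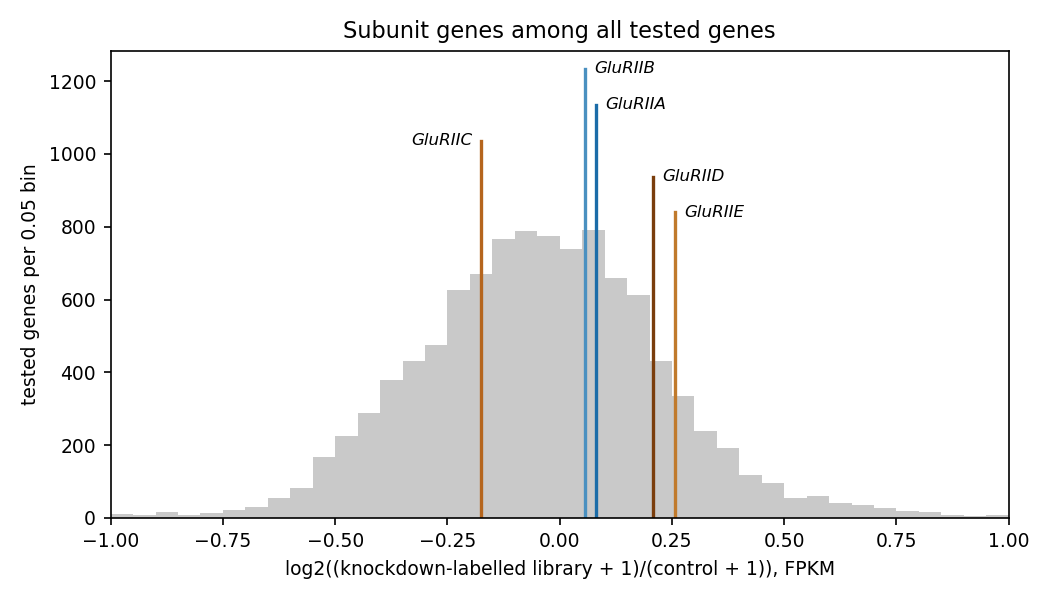
Number of tested genes (vertical axis, bins of 0.05) by log2 difference between the knockdown-labelled library and the control library with 1 FPKM added (horizontal axis); vertical lines mark the 5 subunit genes, and their heights carry no value. The axis ends at -1 and 1, and all members lie between -0.17 and 0.26.

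The receptor genes all lay in the lower part of the tested genes by level, at percentile 31.8 or below in each library. Their sum was 31.6 FPKM in the knockdown-labelled library and 29.7 FPKM in the control library, a ratio of 1.06 (1.01 to 1.12). That interval rests on the higher depth estimate and was not computed with the lower one, so a difference of the sum is not settled. GluRIID ranked 7270th of the tested genes in the knockdown-labelled library and 7568th in the control library. GluRIIB ranked 9992nd in the knockdown-labelled library and 10010th in the control library. The sum was 11.0% of the level of Mhc, the muscle myosin heavy chain gene, in the knockdown-labelled library and 11.2% in the control library. Beside other genes the direction varied. It was 87.6% of the muscle gene Mef2 in the knockdown-labelled library and 83.3% in the control library. For the neuronal gene VGlut it was 607% in the knockdown-labelled library and 649% in the control library, and for brp 1350% and 1870% in the same order.

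Genes of contractile muscle were at higher levels than any subunit gene, from 13.4 FPKM upwards in the knockdown-labelled library and from 11.3 FPKM upwards in the control library. All 14 listed genes were above 0, beside 43.5% of all tested genes as deposited and 78.8% after rescaling to an equal sum. Their median log2 difference was 0.15, and none reached 2-fold, beside 2.39% of tested genes. Prm, which encodes paramyosin, and wupA, which encodes troponin I, had the highest log2 differences of this list, at 0.30 and 0.29. The lowest were those of the actin gene Act57B at 0.07 and of the muscle LIM protein gene Mlp84B at 0.10. The 5 markers of body wall muscle (Mhc, Act57B, Mlc2, Tm2 and Mef2) summed to 9962 FPKM in the knockdown-labelled library and 9431 FPKM in the control library. Most of each sum came from Act57B, at 7752 FPKM in the knockdown-labelled library and 7375 FPKM in the control library. Mef2, a transcription factor gene of muscle, was at 36.0 FPKM in the knockdown-labelled library and 35.6 FPKM in the control library. In whole embryos, a different number of muscle cells and a different RNA level per cell cannot be told apart. The part of muscle content in the subunit differences was not tested.

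Genes of the list of postsynaptic partners and regulators, which includes the transcription factor genes lola and Mef2 and the translational repressor gene pum, were also mostly above 0. Of 21 listed genes 19 were tested, 17 lay above 0, beside 43.5% of all tested genes, and none reached 2-fold, beside 2.39%. The median was 0.11, and Nlg3 and Nlg4 stayed under 1 FPKM in both libraries. CaMKII, which encodes a synaptic protein kinase, was at 94.1 FPKM in the knockdown-labelled library and 79.4 FPKM in the control library (log2 0.24). Nlg1, which encodes a postsynaptic neuroligin, was at 2.68 FPKM in the knockdown-labelled library and 2.14 FPKM in the control library (0.23). The 2 genes below 0 as deposited were dock, which encodes an adaptor that acts with the kinase Pak, and pum. For dock the levels were 21.7 FPKM in the knockdown-labelled library and 26.4 FPKM in the control library (-0.27), and for pum 31.7 FPKM in the knockdown-labelled library and 36.0 FPKM in the control library (-0.18). After rescaling to an equal sum 18 of the list lay above 0, beside 78.8% of all tested genes.

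Genes of this list with a known action on the receptor varied widely in level. Neto, which encodes the auxiliary subunit that receptors need in order to cluster, was at 1.12 FPKM in the knockdown-labelled library and 1.02 FPKM in the control library (0.07). These point values are below those of every receptor subunit gene in both libraries. No counting interval was computed for Neto, so its order against GluRIIB, the lowest subunit gene, is not settled. The cytoskeletal linker gene cora, whose product anchors receptors with GluRIIA, was at 52.0 FPKM in the knockdown-labelled library and 45.7 FPKM in the control library (0.18). The scaffold gene dlg1 was at 19.7 FPKM in the knockdown-labelled library and 18.4 FPKM in the control library (0.09). The transcription factor gene lola, which is known to promote expression of the subunit genes, was at 286 FPKM in the knockdown-labelled library and 283 FPKM in the control library (0.01). Most of these partners are also used outside muscle, so their levels are not muscle levels.

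On the presynaptic side, 8 of 10 tested genes lay above 0 as deposited, with a median of 0.12, and all 10 did so after rescaling to an equal sum. The shares over all tested genes were 43.5% as deposited and 78.8% after rescaling. None of the list reached 2-fold and 1 gene, cpx, reached 1.5-fold, beside 2.39% and 5.84% of tested genes. VGlut, the vesicular glutamate transporter gene that marks glutamatergic neurons, was at 5.20 FPKM in the knockdown-labelled library and 4.57 FPKM in the control library (0.15). The active zone gene brp was at 2.34 FPKM in the knockdown-labelled library and 1.59 FPKM in the control library (0.37). The highest differences were those of cpx at 0.67 and Syt1 at 0.44, both genes of vesicle release. The lowest as deposited were those of the active zone gene Rim at -0.12 and the vesicle priming gene unc-13 at -0.03. The neuronal markers elav, nSyb, Syt1, brp and fne summed to 66.6 FPKM in the knockdown-labelled library and 57.1 FPKM in the control library, with 4 of 5 above 0 as deposited. Their part in these differences was not tested.

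The muscle subunit genes summed to more than the other glutamate receptor genes of the list. The other 11 glutamate receptor genes together were at 25.2 FPKM in the knockdown-labelled library and 19.9 FPKM in the control library, below the sum of the 5 muscle genes in each. Of these 6 were tested, all above 0, beside 43.5% of all tested genes as deposited and 78.8% after rescaling to an equal sum. Their median was 0.21, and none reached 2-fold, beside 2.39% of tested genes. The kainate-type receptor gene KaiR1D was at 8.37 FPKM in the knockdown-labelled library and 7.76 FPKM in the control library (0.10). CG11155, another ionotropic receptor gene, was at 7.52 FPKM in the knockdown-labelled library and 4.61 FPKM in the control library (0.60) and was the only gene of this list past 1.5-fold, beside 5.84% of tested genes. Both lay within the range of the muscle subunits in each library. The glutamate-gated chloride channel gene GluClalpha was at 1.98 FPKM in the knockdown-labelled library and 1.43 FPKM in the control library (0.30), and the AMPA-type gene GluRIA at 1.31 FPKM in the knockdown-labelled library and 1.02 FPKM in the control library (0.19). GluRIB, clumsy, Ekar, Grik and Nmdar2 stayed under 1 FPKM in both libraries.

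**Figure D4:**
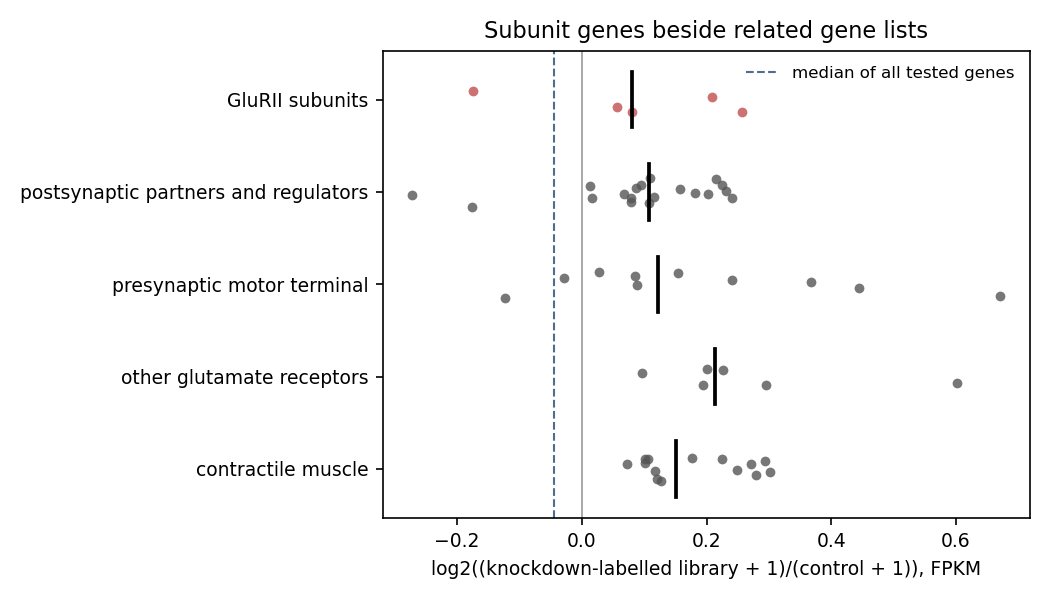
Log2 difference between the knockdown-labelled library and the control library with 1 FPKM added (horizontal axis) for the 5 subunit genes (red) and the tested genes of 4 related lists (grey), 1 point per gene, with the median of each list as a black bar and that of all tested genes (-0.04) as a dashed line. The medians lie between 0.08 for the subunit genes and 0.21 for the other glutamate receptors, and points below 0 are so as deposited.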

How the data were processed

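The 2 deposited tables hold 1 FPKM value (fragments per kilobase of transcript per 1000000 mapped fragments) per annotated transcript, per the file headers. The authors used TopHat and Cuffdiff, per the submitters' processing notes. Their settings, use of strand, build and annotation were not given in the sources used here. Transcripts were summed to FlyBase gene identifiers, which left out 365 of 33887 transcripts with no identifier and gave 17301 genes. A gene counted as tested if either library reached 1 FPKM (10576 genes). Differences are log2((knockdown + 1)/(control + 1)), a scale that understates those of low genes. The size rule was an absolute value of 1.

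Fragments were estimated from single-transcript genes of 1000 to 3000 nt, where FPKM times length piles up at the value of 1 fragment (31.1 in the knockdown-labelled library and 43.9 in the control library). Exact Poisson, binomial and conditional odds-ratio intervals at 95% rest on this estimate, which carries its own uncertainty. They cover counting error only. The procedure was tested on simulated data (Python 3.11.15, SciPy 1.17.1).

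The members and lists were chosen with earlier results of these data known. All members were named, and in each related list the 2 highest and 2 lowest differences were named first. Others were named after their values were seen, for their known role. The alternatives were other pseudocounts, scalings, filters, transcript choices and depth estimates.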

Additional observations from a re-analysis of the deposited data

How the results depend on the processing

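No paired analysis was possible because each group has 1 library, and for the same reason no replicate could be left out. Pseudocounts of 0.1 and 5 and a shift by the median of genes of like length (chosen after the data were seen) moved no member past its counting interval. Use of the highest transcript could not change a member, since each has a single annotated transcript. Rescaling to an equal FPKM sum moved the log2 differences of GluRIIA to 0.32, GluRIIC to 0.077, GluRIID to 0.46, GluRIIE to 0.50 and the receptor sum to 0.36. This setting moves every well-expressed gene upwards by construction. Centring the ratio of genes at 5 FPKM or more moved the receptor sum to 0.16 and gave -0.10 for GluRIIC, whose ratio interval then included 1 (0.831 to 1.03). The GluRIIA interval then just left out 1 (1.001 to 1.27). With a filter at 5 FPKM fewer genes were tested. On the presynaptic side 4 genes (VGlut, Syt1, cpx and nSyb) then lay above 0 and unc-13 below it. The 2 other glutamate receptor genes left, KaiR1D and CG11155, both lay above 0. With no filter 10 of the 11 listed other receptor genes did. The share over all genes under these filters is not given, so these counts have no background beside them. Depth from transcripts of 3000 to 6000 nt came to 17600000 fragments in the knockdown-labelled library and 22700000 in the control library. It rests on 43 genes in the knockdown-labelled library and 31 in the control library and reverses the order of depths, so depth is uncertain. With it the ratio intervals of 3 members (GluRIIC, GluRIID and GluRIIE) still left out 1, as did those of the same 3 pairs of members. Intervals under other scalings, and of levels within a library under the other depth, were added after the data were seen.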
